A study of Mus musculus with 3 samples.

Results

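The naive pluripotency factors Klf2, Klf4, Klf5, Zfp42, Esrrb, Tfcp2l1, Nr5a2, Nr0b1, Tbx3 and Prdm14 were followed in mouse epiblast stem cells (EpiSCs). The 10 genes were chosen by name as genes of the pre-implantation state, and each was found by its Entrez Gene identifier among the 17209 genes listed in at least 1 table. EpiSCs of strain 129 at passage 1, as labelled, had been grown on gelatin in serum with both IWR1 and Y27, and 3 RNA-seq libraries were made, 1 per group. The IWR1 library came from cells treated with 2 µM IWR1, a tankyrase inhibitor that dampens Wnt signalling, for 12 h. The Y27 library came from cells treated for 12 h with Y27, a small-molecule inhibitor named Y27632 in the series title, at 0.5 µM as labelled. For the NT library both inhibitors had been withdrawn overnight, so treatment and withdrawal cannot be told apart in a comparison with NT. Every group had 1 library, so no difference below has a replicate check, no test between groups was possible and no p-value was computed. Expected counts summed to 5607725 in IWR1, 5459332 in Y27 and 5767550 in NT.

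Mouse pluripotent cells are known in a naive state, that of the epiblast before implantation, and in a primed state, that of the epiblast after implantation, which EpiSCs represent. Naive embryonic stem cells keep their state through LIF, a cytokine that acts through the receptor subunits Lifr and Il6st and the transcription factor Stat3, and through relief from ERK signalling and from the repressor Tcf7l1. Klf4 and Tfcp2l1 are induced by LIF and Stat3, Esrrb is repressed by Tcf7l1, and these factors, which are transcription factors or repressors acting on chromatin, hold one another active in naive cells. In EpiSCs most of them are known to be low or silent, while Pou5f1 and Sox2 remain on.

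The 10 genes formed 2 tiers. Klf5, Klf2, Klf4 and Tfcp2l1 were counted in every library with at least 12 reads each, whereas Esrrb, Tbx3, Prdm14, Nr0b1, Nr5a2 and Zfp42 never exceeded 8 reads in a library. The upper tier held 96.5% of the reads of the 10 genes in IWR1, 95.3% in Y27 and 95.4% in NT. The lower tier shared 12 reads in IWR1, 16 in Y27 and 21 in NT. With a detection floor of 3 reads, 6 of the 10 genes were above the floor in IWR1, 6 in Y27 and 7 in NT. That floor is 0.536, 0.538 and 0.531 CPM (reads scaled to library size with TMM factors) in IWR1, Y27 and NT, and intervals of reads here are exact 95% Poisson intervals, which cover counting error only. Zfp42 and Nr5a2 were above the floor in no library, whereas Klf5 was expressed in all 3.

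**Figure D1:**
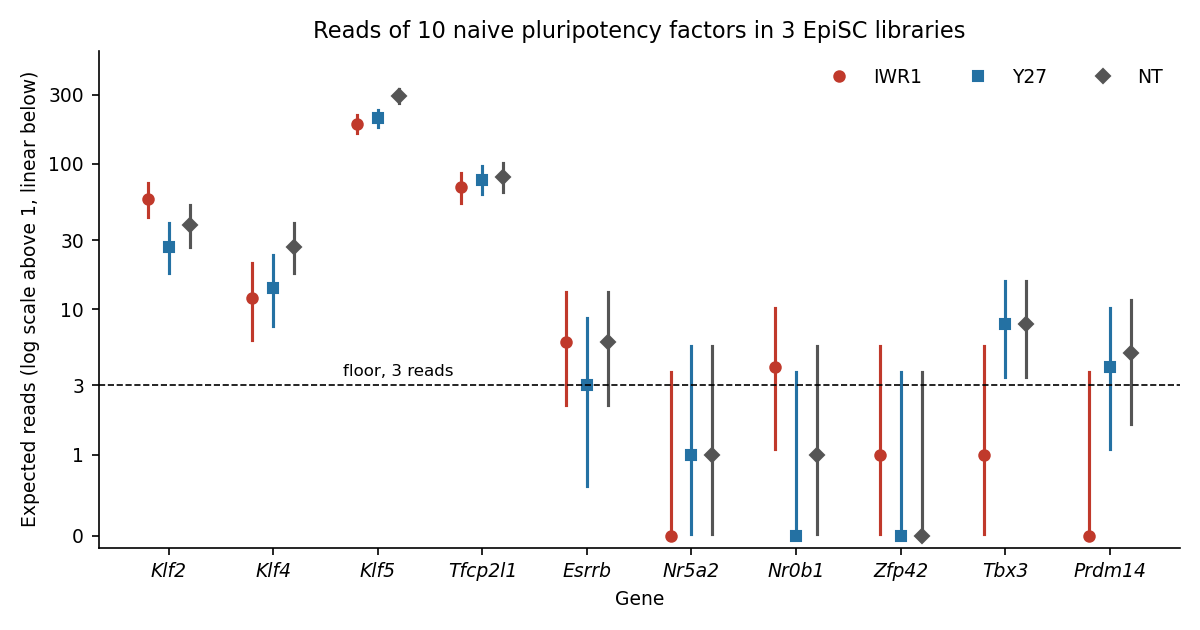
Expected reads of the 10 naive factors (x axis) in the IWR1, Y27 and NT libraries, on an axis that is logarithmic above 1 read and linear below; points are the reads of 1 library, bars their exact 95% Poisson intervals, and the dashed line the floor of 3 reads. Klf5 lies at 189, 206 and 294 reads in IWR1, Y27 and NT, while 6 of the genes stay at or under 8 reads.

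Of the 10 genes, 7 had an entry in the RefSeq promoter table (GRCm38.p6): Klf2, Klf4, Zfp42, Esrrb, Tfcp2l1, Nr5a2 and Nr0b1. Klf5, Tbx3 and Prdm14 had none. The 250 bases before the transcription start of 4 of them are shown. Klf2 and Klf4 had reads in every library, and each had an interval that left out 1 in a pair of libraries. Zfp42 and Nr0b1 were at or near 0 reads, and their windows held an octamer and a nuclear receptor match. Nr5a2, also at or near 0 reads and with the same nuclear receptor match, is not shown. Whether any factor binds these sites was not tested. Capitals mark matches to the motifs named below the sequences.
Klf2, chr8:72318812-72319061, plus strand: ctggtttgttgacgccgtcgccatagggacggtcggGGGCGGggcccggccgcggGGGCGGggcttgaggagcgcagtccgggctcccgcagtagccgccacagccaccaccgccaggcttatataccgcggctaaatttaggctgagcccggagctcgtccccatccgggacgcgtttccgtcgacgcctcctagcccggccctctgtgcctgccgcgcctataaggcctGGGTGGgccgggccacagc
Klf4, chr4:55532476-55532725, minus strand: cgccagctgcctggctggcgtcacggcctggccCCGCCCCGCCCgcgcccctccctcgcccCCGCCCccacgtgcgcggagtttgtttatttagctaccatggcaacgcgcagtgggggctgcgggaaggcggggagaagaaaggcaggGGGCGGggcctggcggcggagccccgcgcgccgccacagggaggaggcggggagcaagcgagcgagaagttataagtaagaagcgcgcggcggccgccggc
Zfp42, chr8:43307010-43307259, minus strand: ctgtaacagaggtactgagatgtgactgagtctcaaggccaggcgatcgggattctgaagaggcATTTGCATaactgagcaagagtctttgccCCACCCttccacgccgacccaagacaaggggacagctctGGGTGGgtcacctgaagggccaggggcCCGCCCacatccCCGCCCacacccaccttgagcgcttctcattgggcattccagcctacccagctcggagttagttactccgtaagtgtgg
Nr0b1, chrX:86191525-86191774, plus strand: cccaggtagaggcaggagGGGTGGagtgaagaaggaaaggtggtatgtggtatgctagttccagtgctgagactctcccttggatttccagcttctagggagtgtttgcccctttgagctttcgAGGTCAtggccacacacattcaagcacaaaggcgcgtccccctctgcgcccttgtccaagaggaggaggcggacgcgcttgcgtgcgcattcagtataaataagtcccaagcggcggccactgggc
Motifs were searched on both strands, and the search was set after these sequences had been seen. The GC box (GGGCGG), to which Sp and many Klf factors bind, was found in 32.7% of all 32851 promoter windows of this length. It matched 2 places in the Klf2 window, 4 in the Klf4 window and 2 in the Zfp42 window. The CACCC box (CCACCC), another Klf site, was found in 28.1% of all windows and matched 1 place for Klf2, 2 for Zfp42 and 1 for Nr0b1. The octamer ATTTGCAT, which POU factors such as Pou5f1 bind, was found in 1.60% of all windows and stood 186 to 179 bases before the start of Zfp42, alone among the 9 windows of these genes. The nuclear receptor site AGGTCA, found in 14.0% of all windows, stood 126 to 121 bases before the start of Nr0b1 and also in 1 of the 2 Nr5a2 windows. A STAT site (TTCNNNGAA, 7.02% of all windows) was matched in 1 of the 2 Esrrb windows, and a TCF/LEF site (CTTTGAT, 3.21%) in none of the 9. Matches to different motifs did not overlap in these windows, and 2 of the GC boxes of Klf4 share a base. The Klf2 and Klf4 windows were rich in G and C, at 71.2% and 74.0%, against a median of 52.4% over all windows. A match is a description of letters and not a bound site.

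Klf5 (Entrez Gene 12224), a zinc finger factor of the inner cell mass, of naive cells and of several epithelia, was the most abundant of the 10. It had 189 reads in IWR1, 206 in Y27 and 294 in NT, or 33.8, 36.9 and 52.0 CPM. Both treated libraries lay below NT, and their read intervals (163 to 218 and 179 to 236) did not reach that of NT (261 to 330). Klf5 was 1.54-fold lower in IWR1 than in NT (1.28 to 1.86), with the exact conditional binomial 95% interval in brackets here and below, which covers counting error only. In Y27 it was 1.41-fold lower than in NT (1.17 to 1.69). Between the treated libraries the ratio of IWR1 to Y27 was 0.914 (0.747 to 1.12), an interval that spans 1. Klf5 was thus below 2-fold in every pair.

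Klf2 (Entrez Gene 16598), a close relative of Klf4 that can stand in for it in naive cells and whose protein is known to be more stable when ERK is inhibited, had 57 reads in IWR1, 27 in Y27 and 38 in NT. These are 10.2, 4.84 and 6.72 CPM. IWR1 was the highest library and Y27 the lowest. Klf2 in IWR1 was 2.10-fold higher than in Y27 (1.31 to 3.46), a log2 difference of 0.94 on the scale log2((CPM + 1)/(CPM + 1)), which understates differences of low genes. For Klf2 the ratio of IWR1 to NT was 1.51 (0.988 to 2.35) and of Y27 to NT 0.720 (0.423 to 1.21), and both intervals span 1.

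Klf4 (Entrez Gene 16600), one of the factors used to reprogram somatic cells and a LIF target in naive cells, had 12 reads in IWR1, 14 in Y27 and 27 in NT, or 2.14, 2.51 and 4.78 CPM. Both treated libraries were lower than NT. Klf4 was 2.23-fold lower in IWR1 than in NT (1.09 to 4.83), a log2 difference of -0.88, or -1.12 with a pseudocount of 0.1 CPM. In Y27 it was 1.90-fold lower than in NT, with an interval of 0.964 to 3.93 that spans 1. Of the ratios of Klf2 and Klf4 to NT, only that of Klf4 in IWR1 had an interval that left out 1.

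Tfcp2l1 (Entrez Gene 81879), a grainyhead family factor that LIF and Stat3 induce and that can sustain naive self-renewal, had 69.06 expected reads in IWR1, 77.53 in Y27 and 80.92 in NT. The 3 libraries were nearly level. The ratio was 0.862 for IWR1 over NT (0.615 to 1.20), 0.971 for Y27 over NT (0.706 to 1.35) and 0.888 for IWR1 over Y27 (0.628 to 1.23), so differences within these limits were not detectable at this depth. For Y27 over NT the sign turned under library-total scaling and on the FPKM values. Tfcp2l1 was the only one of the 10 with fractional counts, as given to reads shared between genes. In the GENCODE transcript matched to it, 1.88% of all 36-base windows also occurred in transcripts of 101 other genes (a window length chosen without knowledge of the read length). For Zfp42 that share was 13.2%, with 1 other gene, and for the other 8 it was between 0 and 2.06%.

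**Figure D2:**
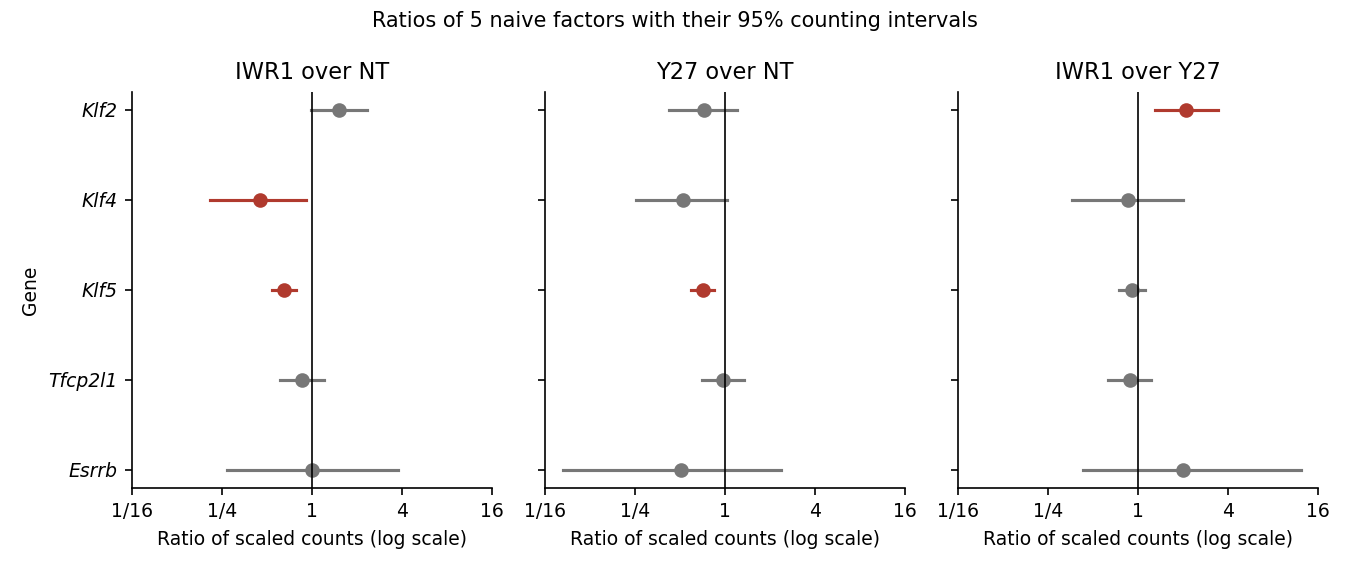
Ratios of TMM-scaled expected counts (x axis, log scale) of Klf2, Klf4, Klf5, Tfcp2l1 and Esrrb for the 3 pairs of libraries; points are ratios, bars exact 95% counting intervals, and red marks intervals that leave out 1. Klf4 (0.449) and Klf5 (0.649) lie below 1 in IWR1 over NT, Klf5 (0.710) in Y27 over NT, and Klf2 (2.10) lies above 1 in IWR1 over Y27.

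The 3 nuclear receptor genes were near or under the floor. Esrrb (Entrez Gene 26380), an orphan receptor at the centre of the naive network, had 6 reads in IWR1, 3 in Y27 and 6 in NT. Its ratio was 1.01 for IWR1 over NT, with an interval of 0.270 to 3.78 that allows differences of several fold either way. Nr5a2 (Entrez Gene 26424), an orphan receptor that can bind and activate Pou5f1, was not listed in IWR1 and had 1 read each in Y27 and NT. Its Poisson interval in IWR1 reaches 0.181 FPKM (fragments per kilobase of transcript, scaled to library depth), and the floor of 3 reads is 0.147 FPKM for its length. Nr0b1 (Entrez Gene 11614), a receptor-like protein without the usual DNA-binding domain that represses Nr5a receptors, had 4 reads in IWR1, was not listed in Y27 and had 1 read in NT. Its ratio of IWR1 to NT of 4.04 had an interval of 0.400 to 199. For IWR1 over Y27 it was 1.33-fold higher with the 0 of Y27 set to the floor of 3 reads, which is not a lower limit. No interval of these 3 genes separated a pair of libraries.

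Zfp42 (Entrez Gene 22702), also called Rex1, is the zinc finger gene by which naive cells are commonly told from primed ones. It had 1 read in IWR1 and was not listed in Y27 or NT. The Poisson upper limit of a count of 0 was 0.372 FPKM in Y27 and 0.352 FPKM in NT, and the 1 read over all 3 libraries corresponds to 0.0327 FPKM, with an upper limit of 0.182 by the same interval. In the same libraries Pou5f1 had 7380 reads in IWR1, 6488.98 in Y27 and 8266.97 in NT. Binding of its product to the octamer in the Zfp42 window was not tested.

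Tbx3 (Entrez Gene 21386), a T-box factor that supports naive self-renewal and is also used in extraembryonic endoderm and later organs, had 1 read in IWR1, 8 in Y27 and 8 in NT. IWR1 was the low library and Y27 was level with NT. The ratio of 0.126 for IWR1 over NT had an interval of 0.00285 to 0.942, and that of 0.125 for IWR1 over Y27 an interval of 0.00281 to 0.929. Tbx3 was the only one of the 10 past 2-fold on the log2((CPM + 1)/(CPM + 1)) scale, at -1.03 for IWR1 over NT and -1.05 for IWR1 over Y27. That call rests on 1 read in IWR1: the value for IWR1 over NT was -0.31 with a pseudocount of 5 CPM, -0.32 on the deposited FPKM values and -0.98 after removal of the trend in GC content and length. Prdm14 (Entrez Gene 383491), which in naive and germ cells represses FGF signalling and de novo DNA methyltransferase genes, was not listed in IWR1 and had 4 reads in Y27 and 5 in NT. With its 0 reads in IWR1 set to the floor of 3 reads, Prdm14 was 1.65-fold lower than in NT and 1.34-fold lower than in Y27. These values are not lower limits, since the counting intervals of both ratios span 1.

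Calls at 2-fold over the 10 genes and the lists below were made on the log2((CPM + 1)/(CPM + 1)) scale, on which the ratios of Klf4 for IWR1 over NT and of Klf2 for IWR1 over Y27 fall short of 2-fold. On that scale IWR1 was lower than NT by 2-fold or more for 1 (Tbx3) and higher by as much for 0, against 1.87% and 2.00% of all 17209 listed genes. By the counting interval alone, 3 of 10 (Klf4, Klf5 and Tbx3) lay wholly below NT in IWR1 and 0 wholly above, where 14.5% of listed genes lay below and 15.6% above. Among genes with a mean of 1 CPM or more, the same shares were 2.25% and 2.29% by fold and 19.1% and 20.3% by interval. Y27 passed 2-fold against NT for 0 of 10 in either direction, against 1.13% of listed genes lower and 4.52% higher. There 1 of 10 (Klf5) had an interval wholly below NT and 0 wholly above, against 17.4% and 16.9%. Among genes with a mean of 1 CPM or more, these shares were 1.34% and 5.58% by fold and 22.9% and 22.0% by interval. For IWR1 over Y27, 1 of 10 (Tbx3) was lower by 2-fold or more and 0 higher, against 2.48% and 1.21% of listed genes. There 1 interval (Tbx3) lay wholly below and 1 (Klf2) wholly above, against 12.4% and 12.5%. Among genes with a mean of 1 CPM or more, these shares were 2.90% and 1.38% by fold and 16.1% and 16.3% by interval. Only 5 of the 10 (Klf2, Klf4, Klf5, Tfcp2l1 and Tbx3) had a mean of 1 CPM or more, as had 12955 of all genes, and every gene called above is among these 5. Tbx3 reached that mean, at 1.01 CPM, only through Y27 and NT. Esrrb, Zfp42, Nr5a2, Nr0b1 and Prdm14 were under a mean of 1 CPM, and differences of several fold were not detectable for them at this depth.

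The median log2 difference of the 10 was -0.22 for IWR1 over NT, -0.18 for Y27 over NT and -0.14 for IWR1 over Y27, where that of all listed genes was 0.00 in each pair. The genes at or near 0 reads hold it close to 0, and over the 5 genes of 1 CPM or more it was -0.61, -0.40 and -0.16, a description of genes that passed a filter on level. Tbx3, with a mean of 1.01 CPM, passed that filter only through Y27 (1.43 CPM) and NT (1.42), against 0.179 in IWR1. The filtered medians with IWR1 therefore hold a gene admitted by the libraries in which it was higher, and give no support for a lower level in IWR1. The first and second share the NT library and are not independent. The 10 genes together summed to 60.6 CPM in IWR1 and 61.0 CPM in Y27, against 81.5 CPM in NT. Klf5 alone gave 189 of 339.06 reads in IWR1, 206 of 340.53 in Y27 and 294 of 460.92 in NT, so Klf5 made up most of this sum.

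Levels between genes were compared per length, on the deposited FPKM values. Klf5 was at 19.58 FPKM in IWR1, 21.94 in Y27 and 29.59 in NT, higher than 73.6%, 75.7% and 81.6% of the genes listed in each library. Klf2 followed at 5.61, 2.73 and 3.64 FPKM, then Tfcp2l1 at 1.31, 1.51 and 1.49 FPKM and Klf4 at 0.70, 0.83 and 1.52 FPKM. The median listed gene was at 6.49 FPKM in IWR1, 6.83 in Y27 and 6.15 in NT, so of the 10 only Klf5 was above it. Tfcp2l1 and Klf4 could not be ordered, since their counting intervals overlapped in all 3 libraries. Klf2 and Tfcp2l1 overlapped in Y27 (1.79 to 3.96 against 1.22 to 1.92 FPKM) and not in IWR1 or NT. Pooled over the libraries, Tbx3 (0.215 FPKM), Esrrb (0.212), Prdm14 (0.206) and Nr0b1 (0.166) had overlapping intervals and could not be ordered. Zfp42 and Nr5a2 were at 0.0327 FPKM each. The upper limit of Zfp42, 0.182 FPKM, overlaps the intervals of Tbx3, Esrrb, Prdm14 and Nr0b1. That of Nr5a2, 0.118 FPKM, overlaps those of Prdm14 and Nr0b1 and ends just under those of Esrrb (from 0.119) and Tbx3 (from 0.125).

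The primed and core genes checked the cell type. Pou5f1, the POU factor of all pluripotent cells, was at 982.35 FPKM in IWR1, 887.72 in Y27 and 1069.7 in NT, which is 50.2, 40.5 and 36.2 times Klf5. Otx2, a homeobox gene of the primed epiblast, was 2.84 times Klf5 in IWR1, 1.60 times in Y27 and 0.915 times in NT on the FPKM scale, so in NT Klf5 and Otx2 were close. Dnmt3b, a de novo methyltransferase gene that Prdm14 is known to repress in naive cells, was at 177.43 FPKM in IWR1, 102.65 in Y27 and 88.02 in NT. Of the 7 primed epiblast genes used, all were above the floor in every library. Of these, 2 passed 2-fold upward in IWR1 against NT and 0 downward, beside 2.00% and 1.87% of listed genes. They were Fgf5 and, named after its values were seen, Foxd3. The median log2 difference of the 7 was 0.98 in IWR1 and 0.17 in Y27. In Y27, 0 of the 7 passed 2-fold against NT, beside 1.13% of listed genes lower and 4.52% higher. Pou3f1 was 1.79-fold higher in IWR1 than in NT (1.59 to 2.02) but 1.53-fold lower in Y27 (1.32 to 1.78). Of 7 core genes, 1 (Utf1, named after its values were seen) passed 2-fold upward in IWR1 against NT and 0 downward. In Y27, 0 passed. Sox2 was 1.65-fold higher in IWR1 than in NT (1.52 to 1.79). Core medians were 0.31 for IWR1 and -0.18 for Y27. Tcf7l1, the repressor of Esrrb in naive cells, was 1.84-fold higher in IWR1 than in NT (1.59 to 2.14) and had 276 reads in Y27 against 273 in NT. It stood among 12 genes listed as repressors of the naive state, of which 0 passed 2-fold in either treated library against NT. By interval, 3 of the 12 lay wholly below NT in IWR1 and 4 wholly above, beside 14.5% and 15.6% of listed genes. In Y27, 4 lay wholly below and 2 wholly above, beside 17.4% and 16.9%. The median log2 difference of the 12 was 0.09 for IWR1 over NT and -0.12 for Y27 over NT, so Tcf7l1 does not stand for the list.

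**Figure D3:**
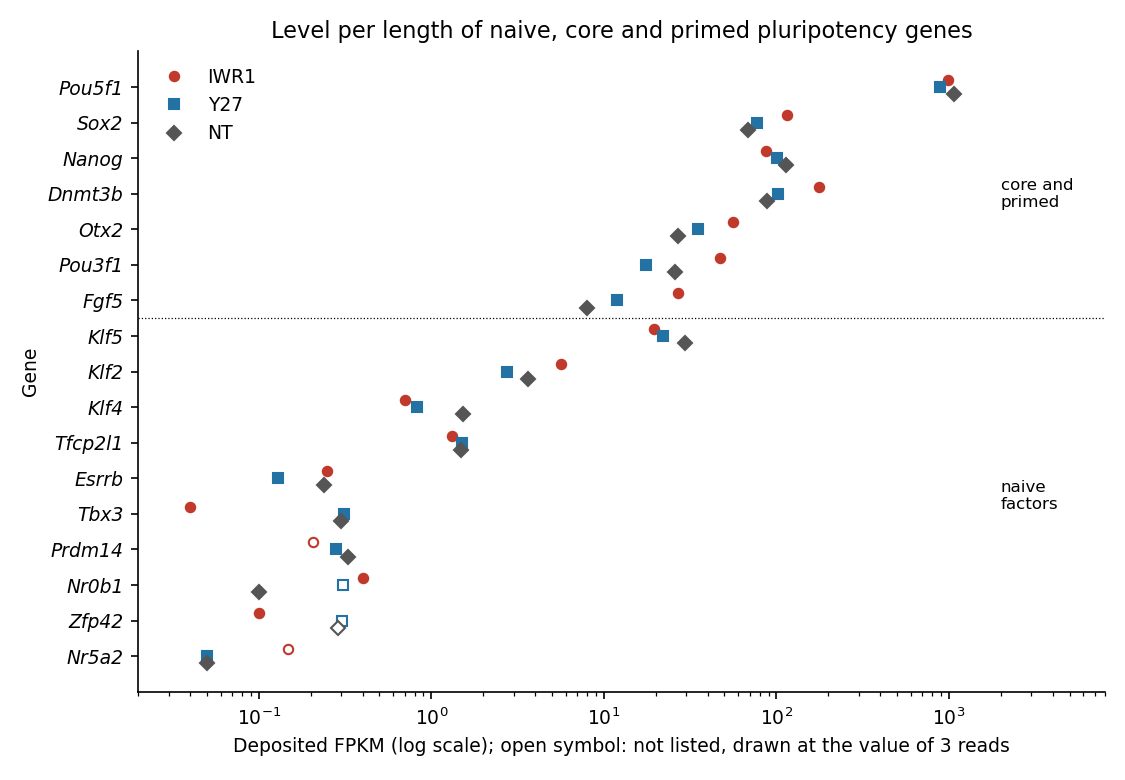
Deposited FPKM (x axis, log scale) of 7 core and primed genes and of the 10 naive factors in the IWR1, Y27 and NT libraries; each symbol is 1 library, and open symbols stand at the FPKM of 3 reads for a gene that was not listed. Klf5 lies among the primed genes in Y27 (21.94 FPKM) and NT (29.59) and below all those drawn in IWR1 (19.58, against 26.78 for Fgf5, the lowest). The 6 lowest naive factors lie at or under 0.40 FPKM.

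Genes of the same families gave a view of the low naive factors beside their relatives. Nr5a1, the closest relative of Nr5a2 and best known from the gonad and adrenal gland, had 542 reads in IWR1, 479 in Y27 and 613 in NT, with whole counts, against 0, 1 and 1 reads of Nr5a2. It was at 32.64, 29.65 and 35.86 FPKM, higher than Klf5 in each library. Nr5a1 was 1.26-fold lower in Y27 than in NT (1.12 to 1.43), and 1.12-fold lower in IWR1, with an interval of 0.996 to 1.26 that spans 1. Esrra, a widely expressed relative of Esrrb, had 137 reads in IWR1, 155 in Y27 and 161 in NT, and Esrrg 0, 1 and 2. Yy1, the gene to which Zfp42 is related, was at 50.88 FPKM in IWR1, 56.85 in Y27 and 45.18 in NT. Yy2, another relative, had 57 reads in IWR1, 43 in Y27 and 26 in NT, 2.21-fold higher in IWR1 than in NT (1.37 to 3.67). Tfcp2 and Ubp1, the relatives of Tfcp2l1, were at 4.77 and 31.1 FPKM in IWR1, 5.17 and 31.37 FPKM in Y27, and 4.28 and 26.55 FPKM in NT, all above Tfcp2l1. Tbx2 had 3 reads in IWR1, 2 in Y27 and 4 in NT. Prdm1, a repressor that founds the germ line with Prdm14, had 51 reads in IWR1, 21 in Y27 and 34 in NT, and was 2.42-fold higher in IWR1 than in Y27 (1.43 to 4.24). Nr0b2, the relative of Nr0b1, was not listed in any library. On the log2((CPM + 1)/(CPM + 1)) scale 0 of these 10 relatives passed 2-fold in either treated library against NT, with Yy2 nearest at 0.998 for IWR1. The shares of listed genes past 2-fold were 1.87% downward and 2.00% upward in IWR1, and 1.13% and 4.52% in Y27.

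Of 14 further Klf genes, 12 were above the floor in IWR1, 12 in Y27 and 13 in NT, and 0 passed 2-fold in either treated library against NT. Among listed genes, 1.87% passed 2-fold downward and 2.00% upward in IWR1, and 1.13% and 4.52% in Y27. The median log2 difference of the 14 was 0.09 for IWR1 over NT and 0.05 for Y27 over NT. In IWR1, 5 had counting intervals wholly above NT and 1 wholly below, beside 15.6% and 14.5% of listed genes. In Y27, 2 lay wholly above and 3 wholly below, beside 16.9% and 17.4% of listed genes. Klf3, a repressor of the family, had 224 reads in IWR1, 169 in Y27 and 121 in NT, 1.87-fold higher in IWR1 than in NT (1.49 to 2.35). Klf6, with the most reads of the 14 in each library, had 713 reads in IWR1, 483 in Y27 and 618 in NT. Klf6 was 1.17-fold higher in IWR1 than in NT (1.04 to 1.30). Klf16, named after its values were seen, went the other way, at 1.28-fold lower in IWR1 than in NT (1.09 to 1.51). Klf4 and Klf5 thus lay below NT in IWR1, while their relatives lay on both sides of it.

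**Figure D4:**
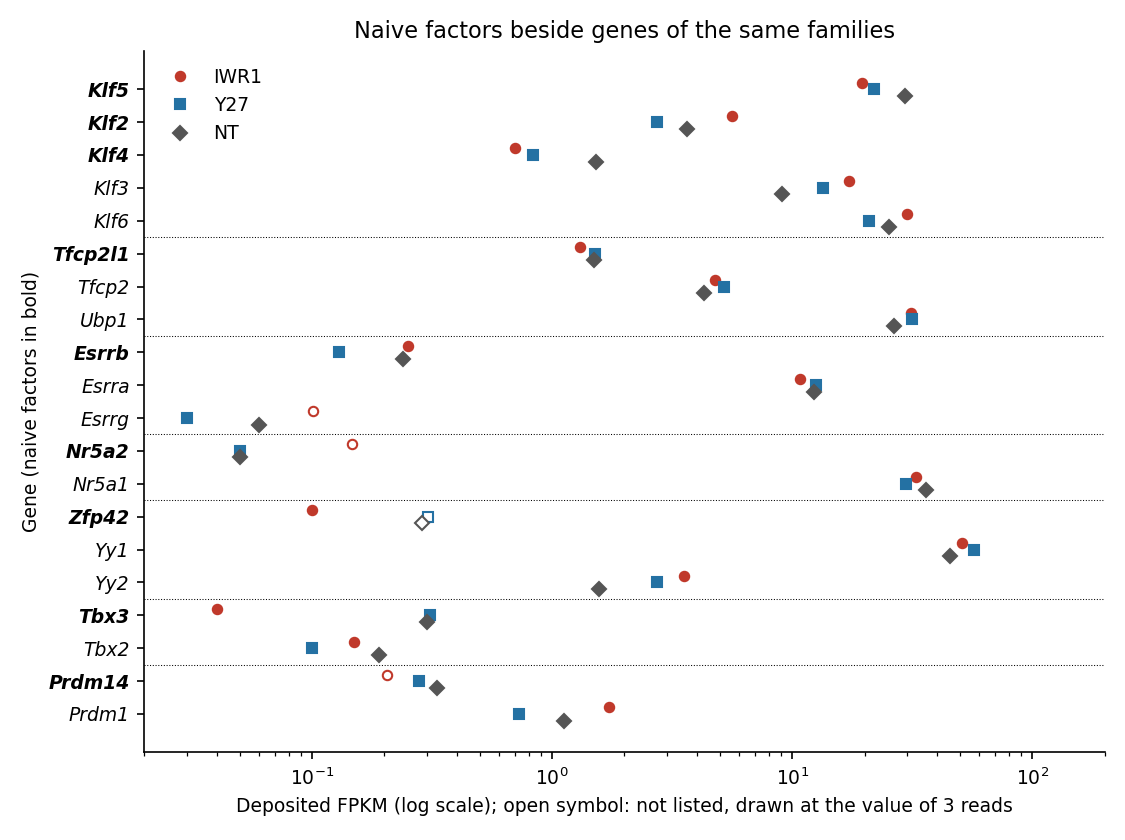
Deposited FPKM (x axis, log scale) of 9 of the naive factors, in bold, beside genes of the same families in the IWR1, Y27 and NT libraries; each symbol is 1 library, and open symbols stand at the FPKM of 3 reads for a gene that was not listed. Nr5a1 lies at 29.65 to 35.86 FPKM, where Nr5a2 does not exceed 0.05 FPKM.

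The LIF pathway, which sustains Klf4 and Tfcp2l1 in naive cells, was present in transcript terms, with all 10 genes used above the floor in every library. Lifr, the ligand-binding receptor subunit, was 2.17-fold higher in IWR1 than in NT (1.65 to 2.93) and 2.14-fold higher in Y27 than in NT (1.62 to 2.88), on fractional counts. Il6st, the shared signalling subunit, had 399 reads in IWR1, 821 in Y27 and 702.01 in NT, and was 1.74-fold lower in IWR1 than in NT (1.54 to 1.97). Stat3 had 255 reads in IWR1, 181 in Y27 and 239 in NT. Socs3, a feedback inhibitor that Stat3 induces, was 1.53-fold lower in IWR1 than in NT (1.12 to 2.09), and its interval spans 1 in Y27. Pim1, a kinase gene also induced by Stat3 and singled out after its values were seen, had 325 reads in IWR1, 720 in Y27 and 884 in NT, 2.69-fold lower in IWR1 than in NT (2.37 to 3.07). Of the 10 pathway genes, 1 (Pim1) passed 2-fold downward in IWR1 against NT and 1 (Lifr) upward, beside 1.87% and 2.00% of listed genes. In the same pair 5 had intervals wholly below NT and 1 wholly above, beside 14.5% and 15.6% of listed genes. In Y27 against NT, 1 (Lifr) passed 2-fold upward and 0 downward, beside 4.52% and 1.13% of listed genes. There 5 intervals lay wholly below and 3 wholly above, beside 17.4% and 16.9% of listed genes. All 10 had a mean of 1 CPM or more. Among such genes the shares by interval were 19.1% below and 20.3% above for IWR1, and 22.9% and 22.0% for Y27. The list's median log2 difference was -0.33 for IWR1 over NT and -0.25 for Y27 over NT.

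Of 18 other genes of the naive state, 11 were above the floor in each library. They include Nanog, which primed cells also express and which had 1047.42 reads in IWR1, 1167.28 in Y27 and 1385.02 in NT. Dppa3, Tcl1 and Mael, genes of naive or germ cells, were listed in no library. Dppa5a had 0 reads in IWR1, 3 in Y27 and 1 in NT, and Fbxo15 had 4, 5 and 6 reads. Fgf4, the growth factor gene that drives ERK signalling in naive cells, had 31 reads in IWR1, 15 in Y27 and 19 in NT, 2.06-fold higher in IWR1 than in Y27 (1.08 to 4.11). Pecam1 had 7, 5 and 2 reads and Tet2 25, 38 and 22 reads in IWR1, Y27 and NT. Gbx2, a homeobox gene that can sustain naive cells downstream of LIF, had 4 reads in IWR1, 36 in Y27 and 29 in NT, 7.18-fold lower in IWR1 than in NT (2.52 to 28.1). Spp1, which encodes osteopontin, was the 1 gene of the 18 past 2-fold upward in IWR1 against NT, with 340 reads in IWR1, 26 in Y27 and 81 in NT, and is named after its values were seen. Gbx2 was the 1 gene past 2-fold downward in that pair. Of listed genes, 2.00% were past 2-fold upward there and 1.87% downward. In Y27 against NT, 1 of the 18 (Spp1, 3.07-fold lower, 1.96 to 4.98) passed 2-fold downward and 0 upward, beside 1.13% and 4.52% of listed genes. The median log2 difference of the 18 was 0.00 in each treated library against NT, where genes without reads stand at 0 by construction. Over the 9 genes of 1 CPM or more it was 0.25 for IWR1 and 0.13 for Y27, the values of Tdgf1 and Sall4. These 9 include Nanog and Sall4, which are also among the core genes used. Tdgf1 had 3278 reads in IWR1, 2563 in Y27 and 2780 in NT. Both medians thus do not describe genes confined to naive cells.

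**Figure D5:**
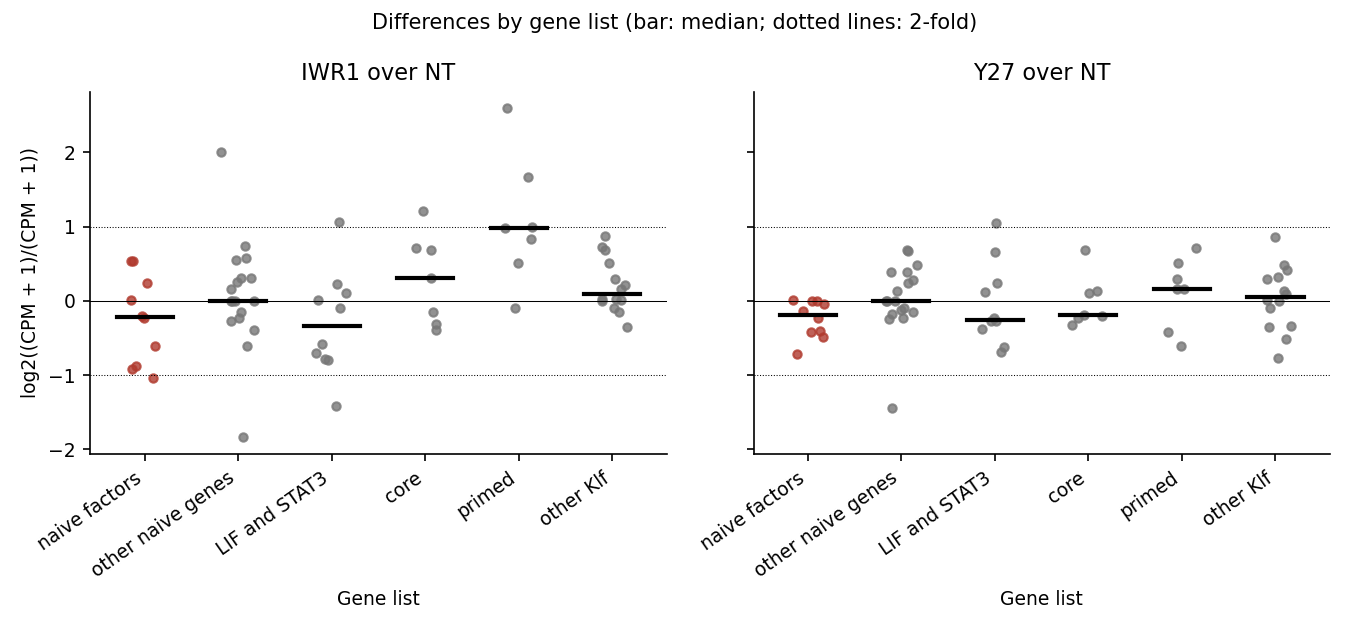
Log2 differences (y axis, log2((CPM + 1)/(CPM + 1))) of each gene of 6 lists for IWR1 over NT, left, and Y27 over NT, right; points are genes, bars list medians, and dotted lines mark 2-fold. The naive factors, in red, have medians of -0.22 and -0.18, and the primed genes medians of 0.98 and 0.17.

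Several of the 10 genes are used by other cell types, among them Klf5 in trophoblast, Klf4 in fibroblasts and Klf2 in endothelium, and in bulk RNA fewer cells of a type and less RNA per cell cannot be told apart. Trophoblast markers summed to 117 CPM in IWR1, 297 in Y27 and 242 in NT, mostly from Eomes, with 6 of 7 above the floor in every library and Elf5 at 0 in all. Cdx2, named after its values were seen, had 14 reads in IWR1, 384 in Y27 and 273 in NT, and was 19.3-fold lower in IWR1 than in NT (11.3 to 35.8). Krt7, also named after its values were seen, had 5 reads in IWR1, 4 in Y27 and 4 in NT. Whether the reads of Eomes and Cdx2 came from trophoblast cells or from the EpiSCs themselves was not tested. Of the 7 trophoblast markers, 4 had intervals wholly below NT in IWR1 and 0 wholly above, beside 14.5% and 15.6% of listed genes. Klf4 and Klf5 were also lower there. In Y27, 0 lay wholly below NT and 2 (Cdx2 and Eomes) wholly above, beside 17.4% and 16.9% of listed genes. Klf5, in contrast, was lower in Y27 than in NT. Fibroblast markers summed to 74.0, 57.5 and 118 CPM in IWR1, Y27 and NT, with 6 of 7 above the floor in each, Col1a1 the highest and Postn at 0 in IWR1. This sum, like Klf4 and Klf5, was lower in both treated libraries than in NT, though the interval of Klf4 in Y27 spans 1. Col1a1 alone was at 54.7 CPM in IWR1, 31.0 in Y27 and 82.2 in NT. Of the 7 fibroblast markers, 2 had intervals wholly below NT in IWR1 and 2 in Y27, beside 14.5% and 17.4% of listed genes. In each, 0 lay wholly above. The part of either marker list in the differences of Klf4 and Klf5 was not tested. Endothelial markers summed to 21.1, 21.2 and 24.9 CPM, with 4 of 6 above the floor and Tie1 and Emcn at 0 in each. Extraembryonic endoderm markers summed to 16.4, 35.4 and 30.6 CPM, mostly from Dab2, with 2, 3 and 2 of 6 above the floor and Sox17 and Afp at 0 in each. Germ cell markers summed to 11.3, 5.02 and 9.55 CPM, mostly from Prdm1, with 2, 2 and 3 of 6 above the floor and Ddx4, Dazl and Dppa3 at 0 in each.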

How the data were processed

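RNA-seq tables of 3 EpiSC libraries (IWR1, Y27 and NT) were used, grouped by their labels. The authors deposited expected counts, an estimate of the reads of each Entrez gene without normalization. They also deposited FPKM, the same quantity per kilobase of transcript and scaled to depth. The submitters' processing notes name Bowtie 0.12.2 and mm8. The counting tool and its use of strand are not given in the sources used here, so genes that overlap on opposite strands could not be told apart. A gene missing from a table was taken as 0 reads. Symbols were found for 99.7% of identifiers (RefSeq, GRCm38.p6).

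TMM factors (0.998 for IWR1, 1.02 for Y27 and 0.980 for NT; edgeR 4.0.16, R 4.3.3) gave CPM, and log2 values used a pseudocount of 1 CPM. Expected counts were rounded for scaling factors and intervals. Ratios against 0 used a floor of 3 reads. The 10 genes and the other lists were chosen with earlier results of these data known. All 10 were named, and from the other lists preset genes. Alternatives were pseudocounts of 0.1 and 5 CPM, other scalings (library total, upper quartile, size factors of DESeq2 1.42.0), the FPKM values with a pseudocount of 1 FPKM, removal of the trend in GC content (GENCODE M21) and length, level filters of 1 and 5 CPM, and thresholds of 1.5-fold and 3-fold. The steps were tested on simulated data. Tables and figures were made in Python 3.11.15 (scipy 1.17.1, numpy 2.4.6, matplotlib 3.10.9, pandas 2.3.3).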

Additional observations from a re-analysis of the deposited data

How the results depend on the processing

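The count of naive factors past 2-fold moved with the treatment of low reads. Except for the filter of 1 CPM, the share of all genes was not computed at the other settings. The counts at those settings therefore have no background. For IWR1 over NT, 1 was lower (Tbx3). With a pseudocount of 0.1 CPM, 4 were lower (Klf4, Tbx3, Prdm14 and Nr5a2, the last on 0 reads against 1). At a threshold of 1.5-fold, 4 were lower (Klf4, Klf5, Tbx3 and Prdm14). The count was 0 with a pseudocount of 5 CPM, the FPKM values, the length and GC trend removed, a filter of 5 CPM or a threshold of 3-fold. None was higher, against 2 with a pseudocount of 0.1 CPM (Zfp42 and Nr0b1, on 1 and 4 reads). For Y27 over NT, 0 were lower, against 1 with a pseudocount of 0.1 CPM (Nr0b1) or a threshold of 1.5-fold (Klf4). For IWR1 over Y27, 1 was lower (Tbx3), against 3 with a pseudocount of 0.1 CPM, 2 at 1.5-fold, and 0 with a pseudocount of 5 CPM, the FPKM values, a filter of 5 CPM or a threshold of 3-fold. For the same pair 0 were higher, against 3 with a pseudocount of 0.1 CPM (Klf2, Zfp42 and Nr0b1) and 2 at 1.5-fold. In NT, 7 genes were above the floor and 4 had at least 10 reads. The median log2 difference ranged from -0.61 (genes of 1 CPM or more) to -0.09 (FPKM) for IWR1 over NT, where it was -0.22, and from -0.40 (filters of 1 and 5 CPM) to -0.05 (pseudocount of 5 CPM) for Y27 over NT, where it was -0.18. These medians and the rest of the other 80 values stayed within their limits, which for a count is 1.5 times and for a median the wide span of the 10 genes' counting intervals. Tbx3, the only one of the 10 genes past 2-fold, kept its sign under the 7 alternatives run for each gene. A changed pseudocount cannot turn a sign, so this says little about that call. No paired analysis was possible because each group has 1 library, and leaving out a library would leave no comparison. Depth limits Esrrb, Tbx3, Prdm14, Nr0b1, Nr5a2 and Zfp42, whose ratios have intervals of several fold.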
